A study of Homo sapiens with 3 samples.

Results

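The data on 9 genes of protein prenylation, CAAX processing and RAS signalling are described, namely the enzymes FNTA, FNTB, PGGT1B, RCE1, ZMPSTE24 and ICMT, the GTPases HRAS and NRAS and the GTPase chaperone RAP1GDS1. They were chosen by name, and all 9 of the 9 were listed in all 3 libraries, among 21308 genes so listed. ICMT was among the genes known to differ when the set was chosen, so its difference is given here as a description. The libraries come from UM-UC-3, a human bladder cancer cell line. They had been transfected for 48 h at 75 nM with a negative control siRNA, with NONO siRNA 1 or with NONO siRNA 2, and each was sequenced once with paired-end reads of 100 bp. NONO binds RNA and DNA and takes part in transcription and splicing, and the study asked how it acts on splicing of SETMAR and on lymphatic spread. The labels do not tell whether separate cultures were used, and each siRNA has no replicate of its own. The p-values and SEs rest on the spread between 2 siRNAs, which may be technical, pooled with that of other genes. The SE of a gene is thus not the spread of its own 2 siRNA values.

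Many small GTPases, the nuclear lamins and other proteins end in a CAAX motif, a cysteine followed by aliphatic residues and a variable last residue. Farnesyltransferase or geranylgeranyl transferase I joins an isoprenoid to that cysteine, RCE1 or ZMPSTE24 then cuts off the residues behind it, and ICMT methylates the new end. These steps carry RAS proteins towards membranes, and RAS mutations are common in human cancers, bladder cancer among them.

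The 3 siRNAs are shown because parts of them match transcripts of the genes described here. Capitals mark bases 2 to 8 of the strand as labelled, the stretch that pairs with off-target transcripts when that strand is loaded as a guide.
control siRNA: uUCUCCGAacgugucacgutt
NONO siRNA 1: gGCGAAGUcuucauucauatt
NONO siRNA 2: gCAUCCCUuacaguucgaatt
The 19 bases before the overhang matched the NONO transcript for both NONO siRNAs, so the labelled strands are sense strands. The control sequence has no match there and was read as a sense strand too. If its label gives the antisense strand, what is said below of its sense strand holds for its guide strand.

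The library totals implied by the values were 27681990 reads for the control, 29408573 for siRNA 1 and 28594569 for siRNA 2. Levels below are in CPM, reads divided by the library total and rescaled, with exact 95% Poisson intervals that cover counting error only. NONO stood at 823 CPM in the control and at 79.5 and 104 CPM with siRNA 1 and siRNA 2. Of the urothelial markers, KRT8 and KRT18 stood at 43.0 CPM or more in all 3 libraries. KRT5, KRT20, UPK1B, UPK3A, EPCAM and CDH1 were each missing from at least 1 of them, and UPK1A and UPK2 stayed at or below 0.442 CPM. The other markers of that list, KRT7, KRT19, GATA3, PPARG, FOXA1 and TP63, stayed at or below 5.71 CPM. Of the markers of other cells, PTPRC, CD3E, LYZ, CDH5, KDR, DCN and LUM were each missing from the list of at least 1 library. The leukocyte list summed to 0.769 to 1.66 CPM over 2 listed members of 6, and the endothelial list to 16.5 to 58.0 CPM, nearly all of it TIE1, over 4 of 6. The fibroblast list summed to 15.8 to 25.7 CPM over 3 of 5, mostly THY1. All 3 sums were highest in the control, and their part in the results below was not tested.

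Of the 9 genes, ICMT rose with NONO siRNA and 8 did not pass the test, in limma with adjustment over all genes. Over all 13922 genes tested, 0.215% passed in either direction and 0.136% were higher. Since ICMT was chosen with its call known, the count of 1 in 9 carries no weight. Both siRNA values lay above the control value for 4 of the 9 genes and below it for 3, against 37.8% and 34.5% of all genes. For the 9 genes the median log2 fold was 0.11 with siRNA 1 and 0.089 with siRNA 2, against 0.025 and 0.0073 over all genes. Aside from ICMT, and NRAS with siRNA 2, every value of the 9 genes lay between 80.5% and 131% of the control.

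**Figure D1:**
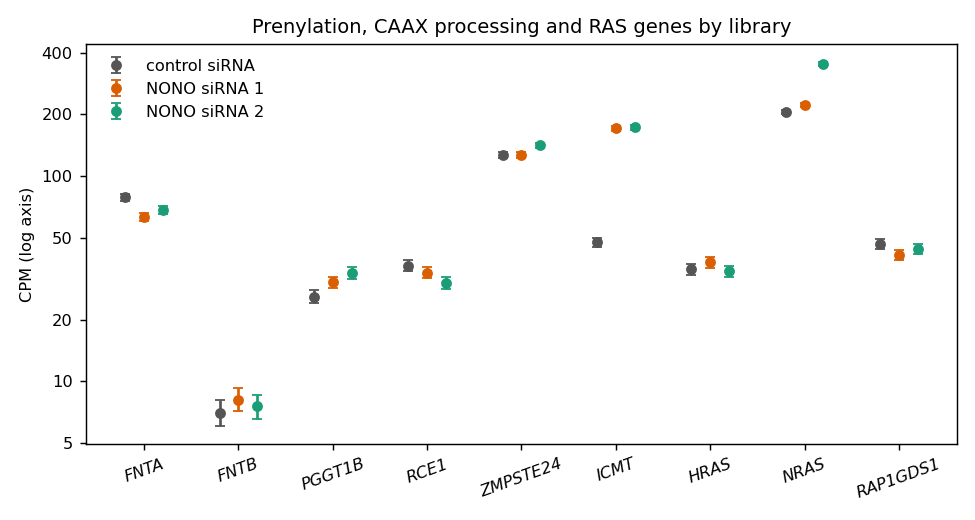
Levels of the 9 genes in each library, in CPM on a log axis, with exact 95% Poisson intervals of counting error, 1 point per library. ICMT stands at 47.5 CPM in the control and at 171 and 173 CPM with the NONO siRNAs. NRAS is highest with siRNA 2 at 352 CPM, and for each of the other genes the libraries lie close together.

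ICMT (ENSG00000116237) codes for the methyltransferase that caps prenylated cysteines in the endoplasmic reticulum. It lies on chromosome 1, 6221193 to 6235972, minus strand, in GRCh38. The control held 1315 ICMT reads, 47.5 CPM (95% interval 45.0 to 50.1). There were 5022 reads or 171 CPM (166 to 176) with siRNA 1 and 4940 reads or 173 CPM (168 to 178) with siRNA 2. The siRNA intervals overlap each other and lie far above that of the control, and both values are more than 3 times it, at 359% and 364%. The log2 folds on log2(CPM + 1) were 1.82 and 1.84, and the SE of the mean fold was 0.23 (limma adjusted p = 0.0324). The call depended on the test. The adjusted p was 0.0057 in edgeR, which called 0.507% of all genes higher, and 2.8e-06 in DESeq2, which called 1.17% higher, but 0.0623 in limma with upper-quartile scaling, 0.0687 with a mean of at least 5 CPM, 0.0751 with TMM scaling and 0.0809 without the trend, and it rose to 0.568 without a filter on low values. The log2 fold stayed between 1.80 and 1.83 in these settings.

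Both siRNAs gave nearly the same ICMT level. Its log2 folds differed by 0.017, at percentile 4.04 of the absolute differences between siRNAs over all genes. The folds stood at percentiles 99.92 and 99.91 of all genes tested. Both comparisons share the control library, so a deviation of that library alone would appear in both folds. At least 2-fold higher with both siRNAs were 1.24% of all genes.

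Of the exon bases of ICMT, 3.99% lie in exons of genes on the opposite strand, RNF207 and LINC00337, and without a stated strand setting such reads cannot be told apart. RNF207 stood at 5.997 CPM in the control and at 2.48 and 2.66 CPM with the siRNAs, and LINC00337 at 0.217, 0.408 and 0.525 CPM.

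A stretch of the ICMT coding sequence is complementary to the first 9 bases of the control siRNA's labelled strand. It is shown because it covers the seed of that strand. Capitals mark the bases that pair without a break with the siRNA.
ICMT, control siRNA, chr1:6232051-6232079, minus strand, GRCh38: gatggtggtcTTCGGAGAAtgtctgagga
The stretch lies in exon 4 of 5 of transcript ICMT-201. It is not the only seed site of the 3 siRNAs in ICMT, and the other is not described here. RCE1, FNTA and HRAS hold no seed site of either strand of any of the 3 siRNAs. With the label read as a sense strand, the guide of the control siRNA is the antisense strand. That strand has no seed site in ICMT or any other of the 9 genes.

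Genes that share this match with ICMT had higher median folds in both knockdown libraries. This grouping was made after the ICMT values were seen. Coding transcripts of 11792 tested genes were searched on the sense strand of the transcript. The 9-base stretch TTCGGAGAA was in 75 of them, or 0.636%, and the 7-base site TCGGAGA within it in 11.6%. Without ICMT, the 74 genes with 9 bases had median log2 folds of 0.34 with siRNA 1 and 0.37 with siRNA 2. The 1289 genes with 7 or 8 bases had 0.14 and 0.093, and the 10428 genes without the site had -0.00049 and -0.021. Higher with both siRNAs were 51 of the 74 genes, or 68.9%, 46.8% of those with 7 or 8 bases and 34.6% of those without. The cyclin-dependent kinase gene CDK14 was the other gene with 9 bases that limma called higher. Genes with a match have longer transcripts, with medians of 4711.5 bases for 9 bases, 4157 for 7 or 8 and 3156 for none, and base composition was not matched. The 943 genes with the 7-base site in the coding part and not in the 3′ UTR had medians of 0.19 and 0.13. The 229 genes with it in the 3′ UTR had 0.18 and 0.14. The control siRNA's antisense strand, which has no seed site in ICMT, has 1 in the 3′ UTR of 342 genes. Their medians were 0.11 and 0.083, against 0.010 and -0.010 for genes without it. The folds share the control library, and the part of this match in the ICMT difference was not tested.

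**Figure D2:**
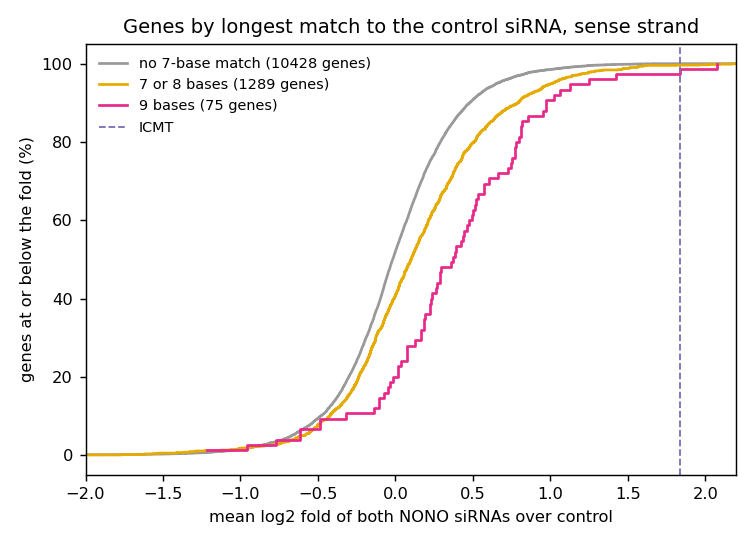
Cumulative share of genes (%) by the mean log2 fold of both NONO siRNAs over the control, with 1 line for each length of the longest match to the control siRNA's sense strand and a dashed line at ICMT. The line of the 75 genes with 9 bases lies to the right of the 1289 with 7 or 8 bases, which lies to the right of the 10428 without a match.

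RCE1 and ZMPSTE24, the proteases that act before ICMT, did not pass the test. RCE1 (ENSG00000173653, chromosome 11, 66842835 to 66846546, plus strand) cuts most prenylated CAAX proteins, RAS among them. It stood at 36.7 CPM (34.4 to 39.0) in the control, 33.9 CPM (31.8 to 36.0) with siRNA 1 and 30.0 CPM (28.1 to 32.1) with siRNA 2. Both siRNA values were lower, and the interval of siRNA 2 does not overlap that of the control. The log2 folds of -0.11 and -0.28 (SE 0.26) did not pass limma (adjusted p = 0.834). Of its exon bases, 12.7% are shared with C11orf80 on the same strand, which stood at 9.10, 13.0 and 14.7 CPM.

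ZMPSTE24 (ENSG00000084073, chromosome 1, 40258107 to 40294184, plus strand) is the protease that turns prelamin A into lamin A. Its level was 127 CPM in the control (123 to 132), 127 CPM with siRNA 1 (123 to 131) and 141 CPM with siRNA 2 (137 to 146). The control and siRNA 1 values coincide and siRNA 2 is slightly higher, with log2 folds of -0.0011 and 0.15 (SE 0.23, limma adjusted p = 0.94). Its 5′ UTR holds a 7-base site for the sense strand of NONO siRNA 2, and its 3′ UTR an 8-base match to the antisense strand, the guide, of NONO siRNA 1.
ZMPSTE24, NONO siRNA 1, chr1:40293427-40293455, plus strand, GRCh38: tagcttcttcTCATTCATgcagtaaataa

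None of the 3 prenyltransferase subunits passed the test. FNTA (ENSG00000168522), the alpha subunit that farnesyltransferase and geranylgeranyl transferase I share, stood at 78.9 CPM (75.6 to 82.2) in the control. It was lower with siRNA 1, at 63.5 CPM (60.7 to 66.5), and with siRNA 2, at 68.2 CPM (65.2 to 71.3). Neither siRNA interval overlaps that of the control, but the log2 folds of -0.31 and -0.21 (SE 0.24) did not pass limma (adjusted p = 0.749).

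PGGT1B (ENSG00000164219, chromosome 5, 115204012 to 115262872, minus strand), the beta subunit of geranylgeranyl transferase I, lay above the control with both siRNAs but did not pass the test. It stood at 25.9 CPM (24.0 to 27.9), 30.4 CPM (28.4 to 32.4) and 33.8 CPM (31.7 to 36.0) in the control, siRNA 1 and siRNA 2 libraries. The log2 folds were 0.22 and 0.37 (SE 0.26, limma adjusted p = 0.732). Its long 3′ UTR holds the antisense seed site of NONO siRNA 1 at 2 places, each within 8 paired bases.
PGGT1B, NONO siRNA 1, chr5:115204762-115204790, minus strand, GRCh38: gctatgaacaTCATTCATttattcactta
PGGT1B, NONO siRNA 1, chr5:115204639-115204667, minus strand, GRCh38: aacagtgtagcCATTCATAaactcaacaa

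FNTB (ENSG00000257365, chromosome 14, 64986720 to 65062652, plus strand), the beta subunit of farnesyltransferase, did not pass the test either. It gave 195, 240 and 216 reads, or 7.04 CPM (6.09 to 8.11), 8.16 CPM (7.16 to 9.26) and 7.55 CPM (6.58 to 8.63). All 3 intervals overlap, and the log2 folds were 0.19 and 0.089 (SE 0.28, limma adjusted p = 0.902). In GENCODE 29, 42.1% of its exon bases are shared with the read-through gene CHURC1-FNTB on the same strand, so its level is uncertain. The coding part of FNTB holds a 7-base site for the sense strand of NONO siRNA 2, in exon 8 of 12.

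HRAS (ENSG00000174775, chromosome 11, 532242 to 537287, minus strand), a RAS GTPase that is palmitoylated after farnesylation, did not pass the test. It stood at 35.1 CPM (33.0 to 37.4) in the control, 38.1 CPM (35.9 to 40.3) with siRNA 1 and 34.4 CPM (32.3 to 36.7) with siRNA 2. All 3 intervals overlap, with log2 folds of 0.11 and -0.028 (SE 0.26, limma adjusted p = 0.97).

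NRAS (ENSG00000213281, chromosome 1, 114704469 to 114716894, minus strand), the GTPase often mutated in melanoma, differed between the siRNAs. It gave 5685 reads or 205 CPM (200.1 to 211) in the control, 6515 reads or 222 CPM (216 to 227) with siRNA 1 and 10068 reads or 352 CPM (345 to 359) with siRNA 2. The control and siRNA 1 values are close, and siRNA 2 stands apart at 171% of the control and 1.59 times siRNA 1. The log2 folds were 0.11 and 0.77, and the SE of their mean was 0.29 (limma adjusted p = 0.628). With 1 library per siRNA the difference between them has no replicate check. On the log2 scale it was 0.67, at percentile 92.0 of the absolute differences, and 11% of all genes differed at least 1.5-fold between the siRNAs. The coding part of NRAS holds a 7-base site for the antisense strand of NONO siRNA 1, as do 22.5% of the transcripts searched, and none for either strand of siRNA 2.
NRAS, NONO siRNA 1, chr1:114709583-114709611, minus strand, GRCh38: ttacgggattcCATTCATtgaaacctcag
Over the 1744 genes with that site in the 3′ UTR, the median difference of siRNA 2 minus siRNA 1 was 0.17. It was -0.043 over the genes without a 3′ UTR site. NRAS belongs to the latter, since its site lies in the coding part, so the value of 0.17 does not describe it. Genes with this site in the coding part only were not examined as a group. The part of the site in the NRAS values was not tested.

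RAP1GDS1 (ENSG00000138698, chromosome 4, 98261384 to 98443861, plus strand), also known as SmgGDS, is a chaperone of small GTPases on their way through prenylation. It stood at 46.9 CPM (44.3 to 49.5) in the control, 41.1 CPM (38.8 to 43.5) with siRNA 1 and 44.0 CPM (41.6 to 46.5) with siRNA 2. The siRNA 2 interval overlaps both others, and the log2 folds were -0.18 and -0.088 (SE 0.25, limma adjusted p = 0.888). Its coding part holds a 7-base site for the sense strand of NONO siRNA 1, in exon 15 of 15.

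**Figure D3:**
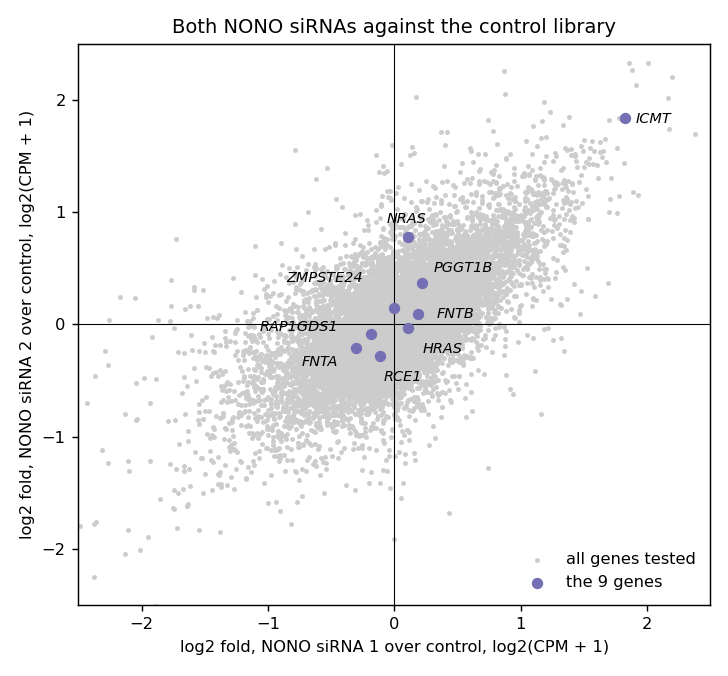
Log2 folds on log2(CPM + 1) of NONO siRNA 1 (x axis) and NONO siRNA 2 (y axis) over the same control library, for all genes tested in grey and the 9 genes in purple. ICMT lies at 1.82 and 1.84, NRAS is high on the y axis only with 0.11 and 0.77, and the axes leave out 11 genes beyond 2.5.

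Divided by the length of 1 coding transcript (CPM per kb), NRAS was highest and the beta subunits lowest in all 3 libraries. In the control library NRAS stood at 46.2 CPM per kb (45.0 to 47.4), then FNTA at 42.9 (41.1 to 44.7) and ZMPSTE24 at 41.0 (39.6 to 42.4), whose intervals overlap. HRAS followed at 30.5, RCE1 at 24.7, RAP1GDS1 at 12.7 and ICMT at 9.96 CPM per kb. PGGT1B at 2.71 (2.52 to 2.92) and FNTB at 2.49 (2.15 to 2.86) overlap. With siRNA 1, ICMT reached 35.8 CPM per kb (34.8 to 36.8) and overlapped FNTA at 34.5 (33.0 to 36.1). With siRNA 2 it stood at 36.2 CPM per kb (35.2 to 37.2), beside FNTA at 37.1 (35.5 to 38.8). The order of the other genes relative to each other was NRAS, ZMPSTE24, FNTA, HRAS, RCE1, RAP1GDS1, PGGT1B and FNTB in both knockdown libraries. With siRNA 1 the intervals of FNTA and HRAS overlapped, as did those of PGGT1B and FNTB. Levels per length depend on the exons counted, and so does the place of ICMT beside FNTA. Over the union of annotated exons FNTA would stand at 8.26 CPM per kb in the control, and ICMT at 9.67. With siRNA 1 FNTA would stand at 6.65 and ICMT at 34.8, and with siRNA 2 at 7.14 and 35.2.

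The ratio between the last enzymes of the pathway differed likewise. ICMT over RCE1, in CPM per kb, was 0.403 in the control, 1.57 with siRNA 1 and 1.79 with siRNA 2. NRAS over HRAS was 1.51 in the control, 1.51 with siRNA 1 and 2.64 with siRNA 2. The ratios depend on the lengths used. Over the union of annotated exons ICMT over RCE1 was 0.790, 3.08 and 3.51, and NRAS over HRAS was 2.43, 2.43 and 4.26, in the same order of libraries.

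The genes whose pattern lay nearest to ICMT included FOXP4, LINC00317, PPP1R14B and ENSA. The measure was the Euclidean distance over the 2 log2 folds among 10436 genes with a mean of at least 5 CPM, so it rests on 3 libraries. LINC00317, a non-coding RNA, stood at 2.75, 11.2 and 12.2 CPM, at a distance of 0.128. FOXP4, a forkhead transcription factor, stood at 18.3, 65.0 and 67.9 CPM, at 0.049. FOXP4 also holds the 7-base match to the control siRNA, as ICMT does, while PPP1R14B and ENSA do not. PPP1R14B and ENSA code for inhibitors of protein phosphatases and lay at 0.245 and 0.273.

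Upstream of the pathway, the enzymes that make the isoprenoids stood higher without passing the test. Of 9 tested genes of isoprenoid supply, 8 were higher with both siRNAs, against 37.8% of all genes, and none was lower with both. No member passed limma or edgeR, and 4 had an unadjusted p under 0.05 in limma, as did 11.4% of all genes. Their median log2 fold was 0.48 with either siRNA, against 0.025 and 0.0073 over all genes. PMVK, phosphomevalonate kinase, stood at 5.78 CPM in the control and at 16.8 and 13.4 CPM with the siRNAs (limma adjusted p = 0.133). HMGCS1, which makes HMG-CoA, stood at 146, 233 and 289 CPM. FDPS, the synthase of farnesyl diphosphate, stood at 31.3, 44.7 and 56.5 CPM, and GGPS1, that of geranylgeranyl diphosphate, at 25.3, 35.5 and 35.1 CPM. IDI1, an isomerase of isoprenoid precursors, was close to the control, with log2 folds of 0.081 and 0.30.

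The genes of Rab prenylation, listed together with PTAR1, had no member past the test. None of the 5 genes passed limma or edgeR, 0 had an unadjusted p under 0.05, and the medians were 0.29 and 0.045. The Rab escort proteins CHM and CHML had log2 folds between 0.29 and 0.39. RABGGTA, the alpha subunit of Rab geranylgeranyl transferase, stood at 18.6, 22.3 and 12.2 CPM, and PTAR1, a further prenyltransferase alpha subunit, at 86.0, 52.9 and 75.7 CPM.

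A further list held, among others, carriers of lipid-modified proteins, acyl transferases, thioesterases and regulators of RAS signalling. Of 18 tested, 9 were lower with both siRNAs and 3 higher, against 34.5% and 37.8% of all genes. The list's medians were -0.19 and -0.11. None of the 18 passed limma or edgeR, and 2 had an unadjusted p under 0.05, as did 11.4% of all genes. SPRED2, a membrane-bound inhibitor of RAS signalling, stood at 150.1, 65.3 and 107 CPM. UNC119, a carrier of lipid-modified proteins, stood at 31.8, 23.9 and 18.9 CPM, and its paralog UNC119B at 37.5, 49.6 and 46.7 CPM. PPP1CB, a phosphatase subunit that activates RAF with SHOC2, stood at 61.1, 87.2 and 100.4 CPM.

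Of 11 tested genes in the GTPase family of RAC1 and CDC42, RAC1 had the highest mean log2 fold. RAC1, a geranylgeranylated driver of lamellipodia, stood at 83.5 CPM in the control, 201 CPM with siRNA 1 and 232 CPM with siRNA 2. Both siRNA values lie more than 2-fold above the control. Its log2 folds of 1.26 and 1.46 did not pass limma (adjusted p = 0.0614) but passed edgeR (adjusted p = 0.0233), where 0.507% of all genes were called higher. RAC1 holds no site of the control siRNA and 1 of the sense strand of NONO siRNA 2. No other of the 11 genes passed either test, and the list's medians were -0.013 and -0.0027. In limma 1 of the 11 had an unadjusted p under 0.05, against 11.4% of all genes. RHOB, a short-lived GTPase, lay above the control with siRNA 1 and below it with siRNA 2, with 40.1, 67.6 and 15.9 CPM, and RHOG was lower with siRNA 2 only, with 78.0, 73.5 and 37.0 CPM. RHOC stood at 108, 69.3 and 90.4 CPM and the atypical RND3 at 16.0, 21.3 and 20.4 CPM. CDC42 and RHOA stayed within log2 folds of -0.22 and 0.061.

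In the rest of the RAS subfamily as many genes were higher as lower. Of 18 tested, 8 lay above the control with both siRNAs and 8 below, against 37.8% and 34.5% of all genes. None of the 18 passed limma or edgeR, 0 had an unadjusted p under 0.05, and the medians were -0.13 and 0.095. RASL11A stood at 6.18, 15.2 and 7.80 CPM and RRAS at 14.2, 20.7 and 19.4 CPM, while RAP2B stood at 75.5, 58.1 and 53.8 CPM and NKIRAS1, an inhibitor of NF-kB signalling, at 20.7, 13.3 and 14.4 CPM.

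Of 26 other farnesylated or CAAX proteins tested, 12 lay above the control with both siRNAs and 4 below. Over all genes the shares were 37.8% and 34.5%. None of the 26 passed limma or edgeR and 3 had an unadjusted p under 0.05, as did 11.4% of all genes. The list's medians were 0.0053 and 0.11. CENPF, a farnesylated kinetochore protein, stood at 164, 304 and 328 CPM, and it holds a site of each control siRNA strand and 2 of the sense strand of NONO siRNA 2. The lamin gene LMNB2 stood at 212, 431 and 364 CPM, and LMNA, which codes for the ZMPSTE24 substrate prelamin A, at 337, 421 and 496 CPM. PRICKLE3 stood at 16.8, 10.2 and 11.2 CPM and ALDH3A2, a fatty aldehyde dehydrogenase, at 88.4, 58.4 and 70.3 CPM. Of 6 tested gamma subunits of G proteins, which are prenylated as well, 4 lay below the control with both siRNAs and 1 above. Over all genes 34.5% lay below and 37.8% above. None of the 6 passed limma or edgeR and 0 had an unadjusted p under 0.05, with medians of -0.36 and -0.17. GNG12 stood at 557, 419 and 496 CPM, GNG5 stood at 135, 91.2 and 111 CPM, GNG11 at 19.2, 14.6 and 16.8 CPM and GNG4 at 29.3, 26.3 and 29.9 CPM.

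**Figure D4:**
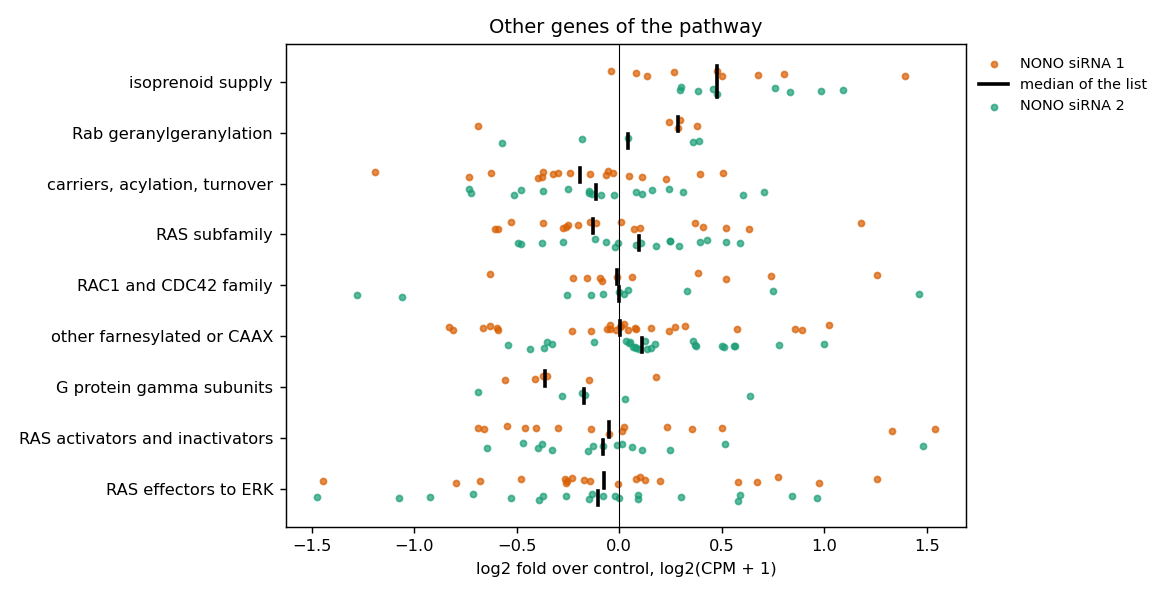
Log2 folds on log2(CPM + 1) of the tested genes of 9 lists with NONO siRNA 1 (orange) and siRNA 2 (green) over the control, 1 point per gene, with a black bar at each list's median. The medians of isoprenoid supply lie at 0.48 with both siRNAs, and the medians of the gamma subunits at -0.36 and -0.17.

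Among regulators of RAS, PTPN11 rose. PTPN11 codes for the phosphatase SHP2, which helps receptor tyrosine kinases to activate RAS. It stood at 166 CPM in the control and at 486 and 467 CPM with the siRNAs, with both values far above the control. Its log2 folds were 1.54 and 1.48 (limma adjusted p = 0.0368, edgeR 0.0067), and it did not pass limma with TMM or upper-quartile scaling, without the trend or with other filters, where the adjusted p ran from 0.0626 to 0.568. PTPN11 holds no site of the control siRNA and 1 of each strand of NONO siRNA 2. It was the only one of 15 tested activators and inactivators that passed. Over all genes, 0.136% were called higher in limma and 0.507% in edgeR. The lists were chosen with earlier results known, and the medians of this one were -0.051 and -0.079. RASAL2, a RAS GTPase-activating protein, stood at 52.2, 133 and 75.0 CPM, the exchange factor RASGRF2 at 59.0, 40.1 and 37.4 CPM and the adaptor SHC1 at 222, 137 and 170.2 CPM.

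Of 20 tested RAS effectors towards ERK and other routes, none passed limma, and edgeR called KSR1 lower, where 0.413% of all genes were. In limma 6 of the 20 had an unadjusted p under 0.05, as did 11.4% of all genes. KSR1, a scaffold that brings RAF, MEK and ERK together, stood at 49.6 CPM in the control and at 17.6 and 17.2 CPM with the siRNAs. Its log2 folds were -1.45 and -1.48 (adjusted p = 0.0699 in limma, 0.012 in edgeR). KSR1 holds 1 site of the antisense strand of NONO siRNA 1, and the part of that site in its values was not tested. The phospholipase PLCE1 at 21.0, 42.3 and 41.9 CPM, the junction protein AFDN at 109, 187 and 196 CPM and PIK3CB at 77.8, 64.9 and 36.4 CPM. The medians of the list were -0.073 and -0.10.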

How the data were processed

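The values deposited by the authors, in 1 table for each library, are CPM (read counts rescaled by the library total, not by gene length), as the numbers themselves show. HTSeq 0.6.1, HISAT2 2.1.0 and bcl2fastq 2.19.1 and the names GRCh37 and hg19 appear in the submitters' processing notes, with no role stated. The annotation and strandedness used for counting is not given in the sources used here. In each library 99.3% to 99.5% of the values correspond to whole reads (tolerance 0.01), and the others sit at 0.5 reads and were taken as 0. The recovered reads served for Poisson intervals, edgeR and DESeq2.

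Of 21308 genes listed in all 3 libraries, 13922 reached 1 CPM in any of them and were tested with limma 3.58.1 (R 4.3.3) with a trend on log2(CPM + 1), both NONO siRNA libraries against the lone control. P-values were two-sided, adjusted by the Benjamini-Hochberg method over all 13922 genes and called under 0.05. The fit has 1 residual and 7.68 prior degrees of freedom and assumes that the control library varies alike. The SE of each gene therefore comes mostly from the trend over all genes. The procedure was tested on simulated data. There every gene and library had the same spread beyond counting error, which need not hold for these libraries. edgeR 4.0.16 called 156 genes and DESeq2 1.42.0 called 198 on the recovered reads.

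The 9 genes and all lists were chosen with earlier results of these data known, among them the ICMT difference. Named were all 9 genes, NONO, the list members past the threshold, the 2 highest and 2 lowest of each list by mean log2 fold with a mean of at least 5 CPM, and the 5 genes nearest to ICMT over both log2 folds. RHOB, CDC42, RHOA, LMNA, FDPS, GGPS1, CDK14 and the rows of genes that overlap the 9 were named after their values were seen. Some genes and 1 site that these rules name are not reported here. A list of proteins that end in a CAAX motif was planned from protein sequences and was not made, since no protein table was used here. Exons, lengths and sequences came from GENCODE 29 on GRCh38, not from the build named in the notes, with 1 coding transcript per gene, by APPRIS class and then by length.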

Additional observations from a re-analysis of the deposited data

How the results depend on the processing

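No paired analysis was possible because the control has 1 library and the siRNA numbers pair nothing. The call of ICMT, the only one among the 9 genes, was lost (0 of 9 called) without a filter on low values, with a mean of at least 5 CPM, with upper-quartile or TMM scaling and without the trend, and was kept (1 of 9) with pseudocounts of 0.1 and 0.5, in edgeR and in DESeq2. Over all genes, 30 calls became 0 without a filter, 5 with a mean of at least 5 CPM, 5 with upper-quartile scaling, 5 with TMM, 3 without the trend, 156 in edgeR and 198 in DESeq2. In limma 1587 genes had an unadjusted p under 0.05 as reported and 1852 without a filter, where NONO itself was not called. None of the 81 values of the 9 genes under these settings changed sign, and of 494 of other named genes 2 did, both of RHOB, whose mean log2 fold of -0.27 became 0.029 in edgeR and 0.028 in DESeq2. The cause was not tested. In these sets 5 and 31 lost a call while 0 and 6 gained 1. With siRNA 1 or siRNA 2 left out, the ICMT log2 fold was 1.84 or 1.82, with no test. The sign changed for HRAS without siRNA 1, from 0.042 to -0.028. For ZMPSTE24 it changed without siRNA 2, from 0.074 to -0.0011. Scaling moved the median of all genes by -0.029 at most. Depth was 195 reads or more for each of the 9 genes, and precision was limited by having 1 library per siRNA.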
